A study of Mus musculus with 12 samples.

Results

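Genes of the extracellular matrix, and of the fibroblasts that make much of it, were examined in RNA sequencing of mouse kidney. The set held 37 genes listed by symbol: 5 fibrillar collagens, 9 chains of the basement membrane, 5 other collagens, 8 glycoproteins and proteoglycans, 2 cross-linking enzymes, 5 fibroblast and myofibroblast genes, and 3 genes for TGF-beta or its activation. All 37 were found among the 32047 genes of the count table, and all 37 passed the filter on low counts in each of the 3 comparisons. In the study, mice were made to overexpress the R176Q/R179Q form of FGF23, a hormone of bone that acts on the kidney, and acute kidney injury was produced 3 weeks later by rhabdomyolysis, the breakdown of skeletal muscle. There were 3 groups of 4 libraries, and all 12 libraries came from renal tissue. NC is a group whose name the labels do not expand. AKI_A_mcherry has acute kidney injury in its name together with mCherry, a red fluorescent protein. AKI_A_FGF23_R176QR179Q has the injury and the hormone variant in its name. Both injured groups share the "A" in their names, which the labels do not explain. The sources used here do not give strain, age, the tissue that made the variant, its vector and promoter, or the day of kidney collection. No group combined the variant or mCherry with a name free of AKI, so effects of the variant before injury were not measured.

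The extracellular matrix of the kidney has a thin basement membrane under every tubule, vessel and glomerular capillary, and a loose interstitial matrix between them. Type IV collagen and laminins build the basement membrane, while fibrillar collagens, microfibrils and proteoglycans fill the interstitium. After injury, TGF-beta signalling and the turning of fibroblasts and pericytes into contractile myofibroblasts are known to raise matrix production, which is part of scar formation when it persists.

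Library totals ran from 55324078 to 70638283 counts. Levels below are CPM, counts set to a common library size with factors from the trimmed mean of M values (TMM). The values of a group are listed in the order of their replicate numbers, which are 1, 2, 3 and 4 in NC and AKI_A_mcherry and 1, 2, 3 and 5 in AKI_A_FGF23_R176QR179Q. The 6 tubule markers examined (Lrp2, Slc34a1, Slc12a1, Slc12a3, Aqp2 and Umod) were detected in every library, with a summed level of 12897 to 14619 CPM in NC, 4315 to 4703 CPM in AKI_A_mcherry and 7028 to 8996 CPM in AKI_A_FGF23_R176QR179Q. Fgf23 itself had 320 to 517 counts per library in AKI_A_FGF23_R176QR179Q and 0 counts in every library of the other groups. Of the AKI_A_mcherry libraries, replicate 3 stood apart and was the lowest of its group for 22 of the 37 genes. Its summed fat markers (Adipoq, Plin1, Cidec and Lep) reached 53.2 CPM against 1.33 to 4.02 CPM in the other three. Plvap, an endothelial gene, stood at 25.3 CPM against 44.6 to 113 CPM. The summed level of the 9 endothelial markers examined was lowest in AKI_A_mcherry replicate 4 (252 CPM), not in replicate 3. Fat markers were also highest in NC replicate 2 (45.9 CPM) and in replicate 1 of AKI_A_FGF23_R176QR179Q (24.2 CPM). Single-library effects on a call are given beside the genes concerned. No label ties a library to an animal of its own, and p-values therefore measure a spread over samples that may be technical.

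The matrix genes passed in both directions. Differences between groups are log2 fold changes (log2FC) with their standard error (SE) from edgeR's quasi-likelihood test, and a gene passed where its Benjamini-Hochberg adjusted p over all genes tested was under 0.05. AKI_A_mcherry against NC is called the injury comparison, AKI_A_FGF23_R176QR179Q against AKI_A_mcherry the variant comparison, and AKI_A_FGF23_R176QR179Q against NC the combined comparison. By their names AKI_A_mcherry and NC differ in mCherry as well as in injury, and the parts of these cannot be told apart. In the injury comparison 16 of the 37 passed as higher, where 27.2% of all 18724 genes tested did, and 6 as lower, where 26.0% did (53.1% in either direction). The other 15 did not pass, and the median log2 fold change was 0.55, against -0.003 over all genes tested. In the variant comparison 7 passed as higher (11.7% of 18824 genes tested) and 6 as lower (11.4%, and 23.1% in either direction), with a median of 0.09 against 0.008 over all genes. In the combined comparison 21 passed as higher (21.7% of 19005 genes tested) and 2 as lower (20.6%, and 42.3% in either direction), with a median of 0.61 against 0.01. Mitochondrial transcripts took 10.9% to 13.1% of counts in AKI_A_FGF23_R176QR179Q, below the 13.8% to 17.1% of AKI_A_mcherry and 15.3% to 16.9% of NC, and genes detected numbered 23838 to 24439 there against 22028 to 23527 and 22769 to 23492. The part of these library differences in the results was not tested. The 3 comparisons share libraries, so they are set side by side and not counted as separate evidence. The groups did not overlap for 15 members in the injury comparison (51.3% of all genes tested), 11 in the variant comparison (28.4%) and 21 in the combined comparison (41.7%). Together the 37 genes took 0.168% to 0.196% of all counts in NC, 0.235% to 0.324% in AKI_A_mcherry and 0.30% to 0.334% in AKI_A_FGF23_R176QR179Q. The spread differed between groups: the median coefficient of variation of a member over 4 libraries was 19.6% in NC, 37.2% in AKI_A_mcherry and 14.2% in AKI_A_FGF23_R176QR179Q. Without AKI_A_mcherry replicate 3, 22 members passed as higher in the injury comparison; without replicate 1 of AKI_A_FGF23_R176QR179Q, 4 in place of 7 passed as higher in the variant comparison. Scaling by library totals alone moved the median of all genes to 0.12, 0.21 and 0.34 in the injury, variant and combined comparisons. Under it 21 members passed as higher and 6 as lower in the injury comparison, 14 and 4 in the variant comparison, and 30 and 1 in the combined comparison. Over all genes the variant comparison went from 2199 higher and 2148 lower to 4060 and 1035, and the combined comparison from 4123 and 3912 to 7829 and 2096.

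**Figure D1:**
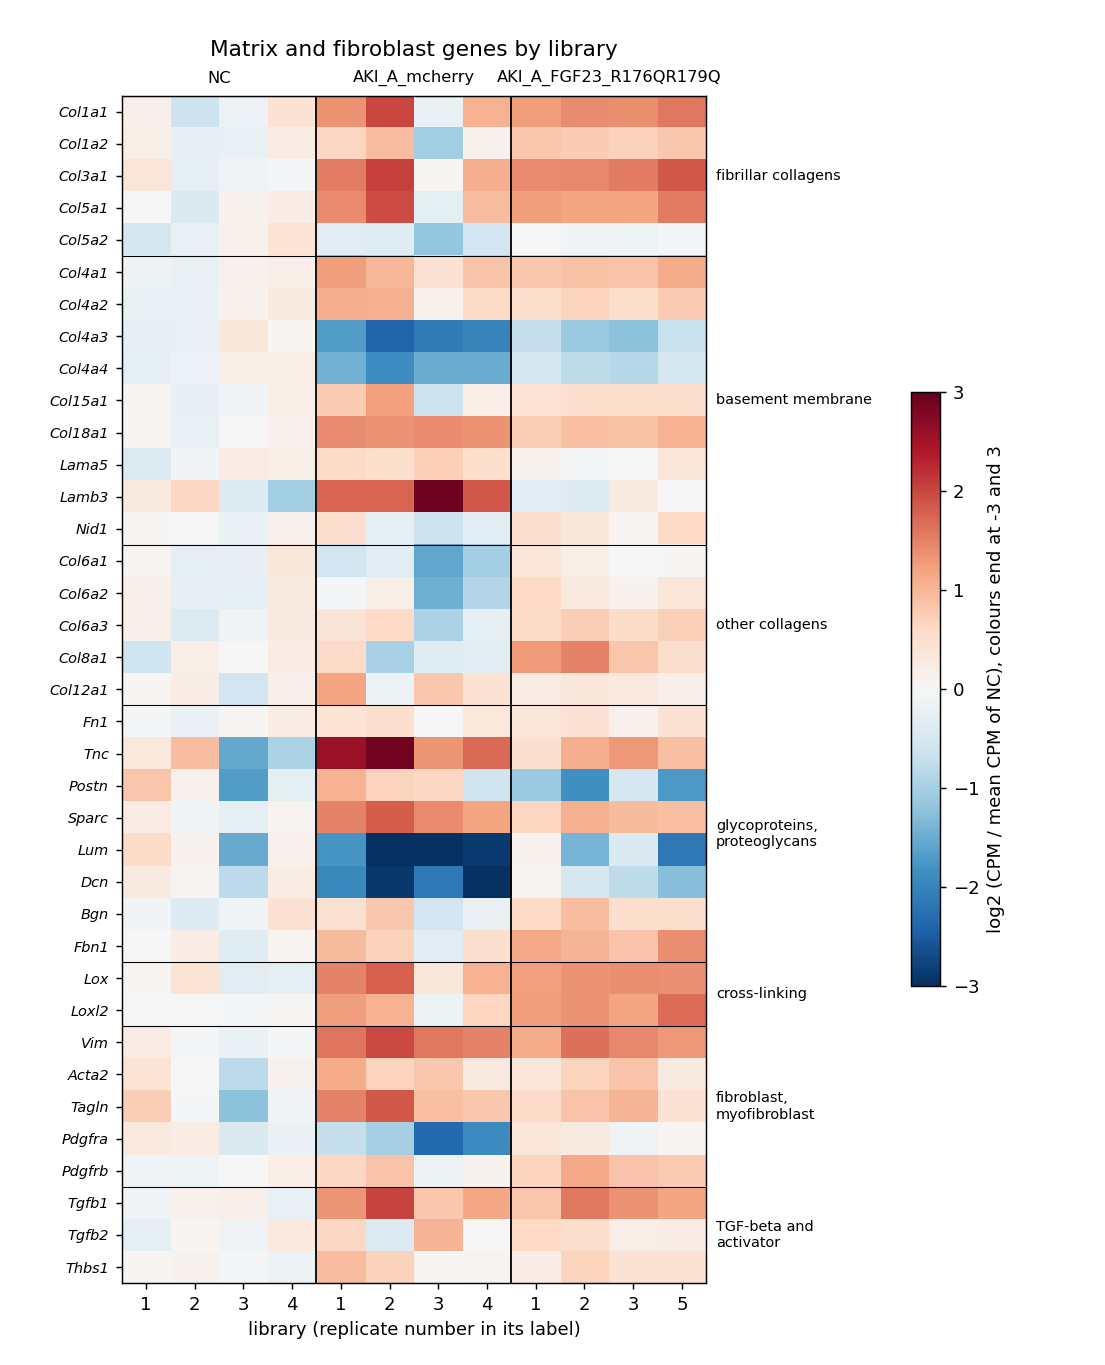
Level of each of the 37 genes in each of the 12 libraries, as log2 of CPM over the mean CPM of NC (colour, red higher and blue lower), in the 3 groups (columns) and by role (rows). Col1a1, Col3a1 and Col5a1 are red in both injured groups apart from AKI_A_mcherry replicate 3, and Lum, Dcn and Col4a3 are deepest blue in AKI_A_mcherry.

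Of the 5 fibrillar collagens, which form the tensile fibres of the interstitium, 3 passed as higher than NC in AKI_A_mcherry (Col1a1, Col3a1 and Col5a1) and 4 in AKI_A_FGF23_R176QR179Q (the same genes and Col1a2), and none passed as lower. None of the 5 passed between the injured groups. The rises were 60.0% and 80.0% of the 5, against 27.2% and 21.7% of all genes. Of all genes 26.0% and 20.6% passed as lower than NC, and 23.1% passed in either direction between the injured groups. Col1a1, the alpha 1 chain of type I collagen, stood at 31.2, 18.1, 24.8 and 37.5 CPM in NC, 71, 112, 24.1 and 57.6 CPM in AKI_A_mcherry and 66.5, 74.8, 72.9 and 84.1 CPM in AKI_A_FGF23_R176QR179Q. AKI_A_mcherry replicate 3 lay inside the NC range, its other libraries lay above it, and all 4 libraries of AKI_A_FGF23_R176QR179Q lay above it within a narrow band. Col1a1 was 2.39-fold higher in AKI_A_mcherry than in NC (log2FC 1.25 ± 0.39 SE, adjusted p = 0.019) and 2.65-fold higher in AKI_A_FGF23_R176QR179Q than in NC (log2FC 1.40 ± 0.19 SE, adjusted p = 1.9e-04). Between the injured groups the log2 fold change was 0.16 (95% interval -0.60 to 0.93, adjusted p = 0.765). Col3a1, the single chain of type III collagen, which is found with type I in soft tissue, stood at 60.6, 38.1, 43.7 and 45.8 CPM in NC, 137, 195, 48.4 and 99.4 CPM in AKI_A_mcherry and 127, 128, 139.5 and 170.2 CPM in AKI_A_FGF23_R176QR179Q. The layout was that of Col1a1, with AKI_A_mcherry replicate 3 alone among the injured libraries inside the NC range. Its log2 fold changes were 1.36 ± 0.34 SE, adjusted p = 0.00683, in the injury comparison and 1.57 ± 0.15 SE, adjusted p = 2.0e-05, in the combined comparison. Between the injured groups it differed by 0.22 (95% interval -0.51 to 0.95, adjusted p = 0.655).

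Type V collagen sits inside type I fibrils and starts their assembly, and its 2 chains did not share a pattern. Col5a1 ranged over 7.57 to 11.8 CPM in NC, 8.31 to 39.1 CPM in AKI_A_mcherry and 23.2 to 29.8 CPM in AKI_A_FGF23_R176QR179Q. Its log2 fold changes were 1.21 (adjusted p = 0.0192) in the injury comparison, 0.09 (adjusted p = 0.882) between the injured groups and 1.29 (adjusted p = 5.8e-05) in the combined comparison. Col5a2 ranged over 20.2 to 38.2 CPM in NC, 12.7 to 22.9 CPM in AKI_A_mcherry and 26.1 to 28.7 CPM in AKI_A_FGF23_R176QR179Q. It passed in none of the 3 comparisons, at a log2FC of -0.56 (adjusted p = 0.0561), 0.50 (adjusted p = 0.052) and -0.07 (adjusted p = 0.764) in the 3 comparisons in turn. Col1a2, the partner chain of Col1a1, ranged over 48.4 to 66.2 CPM in NC, 27.8 to 109 CPM in AKI_A_mcherry and 92.1 to 101 CPM in AKI_A_FGF23_R176QR179Q. It passed only in the combined comparison (log2FC 0.75 ± 0.11 SE, adjusted p = 4.1e-04), a call lost with all 12 libraries in 1 fit (adjusted p = 0.0619, the highest over the alternatives). The AKI_A_mcherry libraries spread on both sides of the NC range (log2FC 0.34 at adjusted p = 0.416 against NC, 0.42 at adjusted p = 0.358 between the injured groups). Several of these calls rested on single libraries. In the injury comparison, the adjusted p of Col1a1 ran from 0.00111 to 0.0602 over the alternatives and missed 0.05 without AKI_A_mcherry replicate 2 (0.0602), NC replicate 2 (0.0545) or NC replicate 3 (0.0517). That of Col5a1 ran from 5.8e-04 to 0.0765 and missed 0.05 without AKI_A_mcherry replicate 2 (0.0602) or NC replicate 2 (0.055). Without AKI_A_mcherry replicate 3, Col1a2 passed as higher in AKI_A_mcherry (adjusted p = 0.0236, over the alternatives 0.0236 to 0.886). Without NC replicate 1, Col5a2 passed as lower there (adjusted p = 0.0234, over the alternatives 0.0212 to 0.171), and without AKI_A_mcherry replicate 1 or 3 it passed as higher in AKI_A_FGF23_R176QR179Q than in AKI_A_mcherry (adjusted p = 0.0369 and 0.0462, over the alternatives 0.0094 to 0.117).

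**Figure D2:**
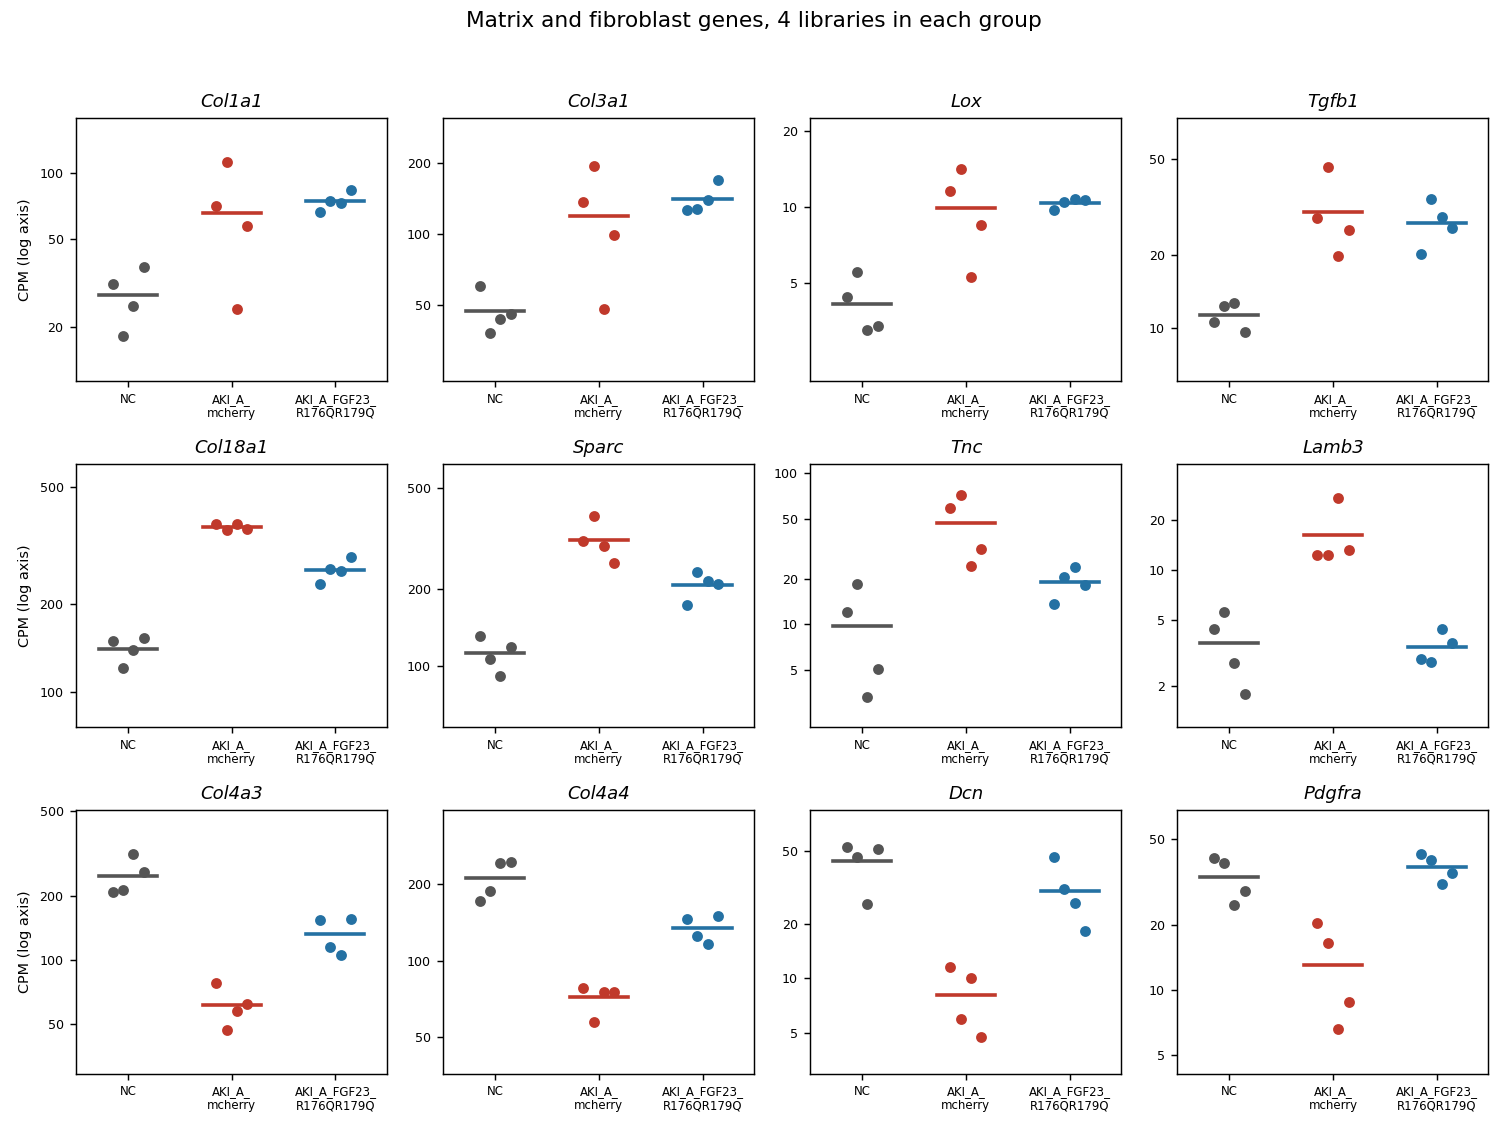
CPM of 12 of the matrix and fibroblast genes in each library (points, log axis) with the group mean (bar), in NC, AKI_A_mcherry and AKI_A_FGF23_R176QR179Q. The top row holds genes that are high in both injured groups, the middle row genes that peak in AKI_A_mcherry, and the bottom row genes that are lowest in AKI_A_mcherry.

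Both enzymes that cross-link collagen after secretion were higher in the injured groups than in NC. Of all genes 27.2% passed as higher in the injury comparison and 21.7% in the combined comparison. Lox, lysyl oxidase, ranged over 3.24 to 5.5 CPM in NC, 5.24 to 14.2 CPM in AKI_A_mcherry and 9.68 to 10.8 CPM in AKI_A_FGF23_R176QR179Q. Its log2 fold change was 1.27 ± 0.31 SE, adjusted p = 0.00516, in the injury comparison and 1.32 ± 0.18 SE, adjusted p = 2.1e-04, in the combined comparison, and between the injured groups it was 0.06 (95% interval -0.50 to 0.63, adjusted p = 0.882). Loxl2, a lysyl oxidase-like enzyme, ranged over 8.33 to 8.88 CPM in NC, 7.79 to 20.4 CPM in AKI_A_mcherry and 19.6 to 27.6 CPM in AKI_A_FGF23_R176QR179Q. All 4 libraries of AKI_A_FGF23_R176QR179Q lay above NC, while AKI_A_mcherry replicate 3 lay below it. The Loxl2 log2 fold changes were 0.79 (adjusted p = 0.0212), 0.58 (adjusted p = 0.127) and 1.36 (adjusted p = 1.1e-05) in the 3 comparisons in turn. In the injury comparison the Loxl2 adjusted p ran from 4.9e-04 to 0.0644 over the alternatives and missed 0.05 without AKI_A_mcherry replicate 1 (0.0644), AKI_A_mcherry replicate 2 (0.0562) or NC replicate 3 (0.051).

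Beside these, 24 genes for folding, modifying and trimming collagen were examined, of which 23 passed the filter on low counts; P4ha3 did not. In the injury comparison 8 passed as higher and 3 as lower (median log2 fold change 0.36), in the variant comparison 5 and 1 (median 0.11), and in the combined comparison 13 and 1 (median 0.57). As shares these were 34.8% and 13.0% in the injury comparison (27.2% and 26.0% of all genes), 21.7% and 4.35% in the variant comparison (11.7% and 11.4%), and 56.5% and 4.35% in the combined comparison (21.7% and 20.6%). Serpinh1, the collagen chaperone HSP47, stood at 81.8, 67.8, 66.9 and 76.7 CPM in NC, 160.3, 225, 154 and 172 CPM in AKI_A_mcherry and 116, 144, 153 and 138 CPM in AKI_A_FGF23_R176QR179Q. It was higher than NC in both injured groups (log2FC 1.29 at adjusted p = 2.3e-05 and 0.89 at adjusted p = 7.9e-05) and did not pass between them (log2FC -0.39, adjusted p = 0.0659). Bmp1, the protease that removes the carboxyl propeptide of procollagen, differed from NC by a log2FC of 1.36 (adjusted p = 1.5e-04) in AKI_A_mcherry, and Loxl4, another lysyl oxidase-like enzyme, by a log2FC of 1.72 (adjusted p = 0.00162). The largest falls there were those of P3h2, a prolyl 3-hydroxylase that acts on basement membrane collagen, at a log2FC of -1.37 (adjusted p = 2.0e-05), and Mia3, which helps to load collagen into transport carriers, at a log2FC of -0.49 (adjusted p = 0.00261). P3h2 was higher in AKI_A_FGF23_R176QR179Q than in AKI_A_mcherry (log2FC 0.88, adjusted p = 0.00128), as was Pcolce, an enhancer of Bmp1 activity (log2FC 0.88, adjusted p = 0.00563). Plod3, a lysyl hydroxylase, was the 1 gene of this list lower there (log2FC -0.42, adjusted p = 0.0495). Against NC, AKI_A_FGF23_R176QR179Q had its largest rises in P3h1, a prolyl 3-hydroxylase (log2FC 1.15, adjusted p = 8.9e-06), and Pcolce2 (log2FC 1.08, adjusted p = 7.9e-04), and its 1 fall in P3h2 (log2FC -0.49, adjusted p = 0.0274). Without replicate 1, 2, 3 or 5 of AKI_A_FGF23_R176QR179Q or replicate 1, 2 or 4 of AKI_A_mcherry, Plod3 did not pass in the variant comparison (adjusted p = 0.0637 to 0.134, over the alternatives 0.0225 to 0.221). The P3h2 call in the combined comparison was lost without replicate 3 or 5 of AKI_A_FGF23_R176QR179Q or replicate 4 of NC (adjusted p = 0.0655 to 0.0774, over the alternatives 0.00738 to 0.417).

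The 2 families of type IV collagen, the sheet-forming collagen of basement membranes, went in opposite directions in both injured groups. Col4a1 and Col4a2 make the network found in nearly all basement membranes. Col4a3 and Col4a4 make, with Col4a5, the network of the mature glomerular basement membrane and of some tubules, and mutations in them cause Alport syndrome. Each pair lies head to head on its chromosome, Col4a1 with Col4a2 on chromosome 8 and Col4a3 with Col4a4 on chromosome 1. The 2 genes of a pair overlap at their starts in RefSeq. The promoter window of RefSeq (300 bases at a gene's start) is shown for 1 gene of each pair, because the members of each pair moved together in the data below. The sequences and positions are RefSeq's for GRCm38.p6, an older build than the GRCm39 named in the submitters' processing notes, and were matched by symbol. Capitals mark the bases that RefSeq places in both genes of a pair, 85 for Col4a1 and Col4a2 and 114 for Col4a3 and Col4a4.
Col4a1, chr8:11312777-11313076, minus strand: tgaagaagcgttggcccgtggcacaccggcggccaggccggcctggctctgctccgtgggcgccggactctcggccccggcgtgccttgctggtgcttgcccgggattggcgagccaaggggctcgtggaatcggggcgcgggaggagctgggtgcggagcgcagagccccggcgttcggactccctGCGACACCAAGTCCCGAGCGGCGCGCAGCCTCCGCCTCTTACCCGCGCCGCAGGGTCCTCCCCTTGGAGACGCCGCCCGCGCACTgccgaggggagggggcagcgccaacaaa
Col4a4, chr1:82586800-82587099, minus strand: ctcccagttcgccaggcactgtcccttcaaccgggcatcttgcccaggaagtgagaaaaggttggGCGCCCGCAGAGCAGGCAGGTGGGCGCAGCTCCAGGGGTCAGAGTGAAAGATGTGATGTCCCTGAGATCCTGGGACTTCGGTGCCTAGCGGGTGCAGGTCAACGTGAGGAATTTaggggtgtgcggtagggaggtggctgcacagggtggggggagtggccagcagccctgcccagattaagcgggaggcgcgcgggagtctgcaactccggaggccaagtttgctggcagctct
The Col4a1 window holds the GC box GGGCGG and the Col4a4 window the SMAD box CAGAC, both searched on both strands, and neither holds TATAAA. Over all 32851 windows these letters occur in 35.7% (GGGCGG), 49.6% (CAGAC) and 13.6% (TATAAA). Of the 30 windows that the table holds for 25 of the 37 genes, 15 hold GGGCGG, 20 hold CAGAC and 6 hold TATAAA. A match is a description of the letters only.

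Col4a1 stood at 152, 145, 183 and 193 CPM in NC, 398, 333, 228 and 305 CPM in AKI_A_mcherry and 295, 307, 305 and 366 CPM in AKI_A_FGF23_R176QR179Q. All 8 injured libraries lay above all 4 NC libraries. It was 1.89-fold higher in AKI_A_mcherry than in NC (log2FC 0.91 ± 0.17 SE, adjusted p = 0.00101) and 1.87-fold higher in AKI_A_FGF23_R176QR179Q (log2FC 0.90 ± 0.11 SE, adjusted p = 1.3e-04). The injured groups differed by less than 0.01 (95% interval -0.35 to 0.34, adjusted p = 0.987). Col4a2 ranged over 108 to 152 CPM in NC, 139.5 to 269 CPM in AKI_A_mcherry and 183 to 214 CPM in AKI_A_FGF23_R176QR179Q. The log2 fold changes of Col4a2 were 0.77 (adjusted p = 0.00957), -0.16 (adjusted p = 0.576) and 0.61 (adjusted p = 0.00193) in the 3 comparisons in turn. The other pair fell. Col4a3 stood at 208, 212, 314 and 257 CPM in NC, 78, 47, 57.8 and 62.2 CPM in AKI_A_mcherry and 154, 115, 105 and 155 CPM in AKI_A_FGF23_R176QR179Q. The 3 groups did not overlap: AKI_A_mcherry was lowest, NC highest and AKI_A_FGF23_R176QR179Q between them. Col4a3 was 4.04-fold lower in AKI_A_mcherry than in NC (log2FC -2.01 ± 0.18 SE, adjusted p = 6.8e-06), 2.13-fold higher in AKI_A_FGF23_R176QR179Q than in AKI_A_mcherry (log2FC 1.09 ± 0.18 SE, adjusted p = 0.00306), and 1.9-fold lower in AKI_A_FGF23_R176QR179Q than in NC (log2FC -0.93 ± 0.17 SE, adjusted p = 0.00133). Col4a4 stood at 172, 188, 241 and 244 CPM in NC, 78.1, 57.6, 75.4 and 75.6 CPM in AKI_A_mcherry and 146, 125, 117 and 149 CPM in AKI_A_FGF23_R176QR179Q. It had the same order with no overlap between any 2 groups, and log2 fold changes of -1.56 ± 0.15 SE, adjusted p = 9.6e-06, then 0.89 ± 0.12 SE, adjusted p = 0.00159, then -0.67 ± 0.13 SE, adjusted p = 0.00234, in the 3 comparisons in turn. The Col4a4 call in the combined comparison had adjusted p from 1.4e-05 to 0.057 over the alternatives and missed 0.05 under library totals alone. Where genes on opposite strands overlap at their starts, reads there cannot be assigned without strand, and whether the counting used the strand of these libraries is not given in the sources used here.

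Set per unit of length, as the deposited FPKM (fragments scaled by gene length and library), Col4a3 at 20.7 ± 4.13 and Col4a1 at 18.7 ± 2.35 FPKM in NC (SD, n = 4) overlapped in their spread. In AKI_A_mcherry Col4a1 was at 38.1 ± 8.33 FPKM and Col4a3 at 5.59 ± 1.37 FPKM, and in AKI_A_FGF23_R176QR179Q they were at 44 ± 4.57 and 13.7 ± 2.75 FPKM. The log2 ratio of Col4a3 to Col4a1 counts within a library, which does not depend on scaling between libraries, was 0.55 ± 0.16 in NC, -2.36 ± 0.35 in AKI_A_mcherry and -1.28 ± 0.26 in AKI_A_FGF23_R176QR179Q (SD, n = 4 each). The groups did not overlap in any of the 3 comparisons of this ratio, and each gave an exact two-sided permutation p of 0.0286, the smallest that 70 assignments allow, and 0.0612 after adjustment over the 15 tests of 5 ratios. The log2 ratio of Col1a1 to Col1a2 rose from -1.07 ± 0.25 in NC to -0.15 ± 0.14 in AKI_A_mcherry and -0.38 ± 0.14 in AKI_A_FGF23_R176QR179Q, with exact permutation p of 0.0286 against NC in both (adjusted 0.0612). The log2 ratio of Col4a1 to Col4a2 was 0.41 ± 0.06, 0.57 ± 0.17 and 0.70 ± 0.07 in NC, AKI_A_mcherry and AKI_A_FGF23_R176QR179Q. The ratios of Acta2 and of Col1a1 to Pdgfrb were 0.84 ± 0.55 and -0.70 ± 0.36 in NC, 1.24 ± 0.49 and 0.04 ± 0.52 in AKI_A_mcherry and 0.57 ± 0.23 and -0.10 ± 0.21 in AKI_A_FGF23_R176QR179Q. None of the 15 tests passed 0.05 after adjustment. With 0.0286 as the smallest possible p, a ratio could pass only where most of the 15 tests reached that value. The adjusted values therefore cannot tell a ratio with fully separate groups from no difference. Podocytes make the Col4a3 and Col4a4 chains of the glomerulus, and 8 podocyte markers were examined. Of these 1 (12.5%, against 27.2% of all genes) passed as higher and 0 as lower in the injury comparison, with summed levels of 298 to 440.0 CPM in NC, 293 to 543 CPM in AKI_A_mcherry and 369 to 516 CPM in AKI_A_FGF23_R176QR179Q. The 1 was Plce1, a phospholipase of podocytes (log2FC 0.79, adjusted p = 0.00448), and none of the 8 was at 0. In AKI_A_FGF23_R176QR179Q 1 (12.5%, near the 11.7% of all genes) passed as higher against AKI_A_mcherry, Ptpro (log2FC 0.71, adjusted p = 0.027). Against NC Ptpro (log2FC 0.71, adjusted p = 0.0104), Wt1 (log2FC 0.65, adjusted p = 0.032) and Nphs1 (log2FC 0.46, adjusted p = 0.00684) passed as higher (37.5%, against 21.7% of all genes). There 1 podocyte marker passed as lower (12.5%, against 20.6%). Without replicate 2 or 3 of AKI_A_FGF23_R176QR179Q or replicate 3 or 4 of AKI_A_mcherry, Ptpro did not pass in the variant comparison (adjusted p = 0.0507 to 0.0782, over the alternatives 0.00377 to 0.0948). The Wt1 call in the combined comparison was lost without replicate 2 or 3 of AKI_A_FGF23_R176QR179Q or replicate 1 or 2 of NC (adjusted p = 0.0636 to 0.0875, over the alternatives 0.00283 to 0.11). Of the 6 tubule markers, 5 passed as lower in the injury comparison, led by Slc12a1, the salt carrier of the thick ascending limb (log2FC -3.77, adjusted p = 1.0e-07), and Slc34a1, the phosphate carrier of the proximal tubule (log2FC -3.73, adjusted p = 1.3e-07). Against AKI_A_mcherry 4 passed as higher in AKI_A_FGF23_R176QR179Q, led by Slc12a1 (log2FC 2.89, adjusted p = 6.5e-05) and Lrp2, megalin (log2FC 1.46, adjusted p = 0.014). Against NC 3 passed as lower, led by Slc34a1 (log2FC -3.24, adjusted p = 2.9e-05) and Lrp2 (log2FC -1.81, adjusted p = 7.5e-04). As shares of the 6 these were 83.3% lower, 66.7% higher and 50.0% lower, against 26.0%, 11.7% and 20.6% of all genes. The part of these cell types in the fall of Col4a3 and Col4a4 was not tested, and in bulk tissue fewer cells of a type and less RNA per cell cannot be told apart.

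Among the further basement membrane genes, Col18a1, Lama5 and Lamb3 peaked in AKI_A_mcherry. Col18a1, the proteoglycan core from which endostatin is cut, stood at 149, 121, 139 and 153 CPM in NC, 376, 357, 374 and 359.7 CPM in AKI_A_mcherry and 234, 262, 259.9 and 288 CPM in AKI_A_FGF23_R176QR179Q. The 3 groups did not overlap and AKI_A_mcherry was highest, with log2 fold changes of 1.39 ± 0.10 SE, adjusted p = 1.3e-06, in the injury comparison, -0.51 ± 0.09 SE, adjusted p = 0.00503, in the variant comparison and 0.88 ± 0.10 SE, adjusted p = 5.2e-05, in the combined comparison. Lama5, the laminin alpha 5 chain of mature basement membranes, stood at 95.4, 121, 151 and 144 CPM in NC, 191, 181, 209 and 178.7 CPM in AKI_A_mcherry and 141, 124, 127 and 165 CPM in AKI_A_FGF23_R176QR179Q. All AKI_A_mcherry libraries lay above both other groups, which overlapped (log2FC 0.57 at adjusted p = 0.00546, -0.46 at adjusted p = 0.0155 and 0.11 at adjusted p = 0.601 in the 3 comparisons in turn). Scaled by library totals alone, neither the Col18a1 nor the Lama5 difference between the injured groups passed (adjusted p = 0.0517 and 0.147, with ranges over the alternatives of 6.9e-07 to 0.0517 and 0.00102 to 0.147). Lamb3, the beta 3 chain of a laminin of epithelia, stood at 4.39, 5.6, 2.72 and 1.79 CPM in NC, 12.2, 12.2, 27.3 and 13.2 CPM in AKI_A_mcherry and 2.9, 2.77, 4.39 and 3.6 CPM in AKI_A_FGF23_R176QR179Q. AKI_A_mcherry lay above both other groups, and its replicate 3 stood apart from the other three. Lamb3 was 4.49-fold higher in AKI_A_mcherry than in NC (log2FC 2.17 ± 0.38 SE, adjusted p = 7.7e-04) and 4.81-fold lower in AKI_A_FGF23_R176QR179Q than in AKI_A_mcherry (log2FC -2.27 ± 0.30 SE, adjusted p = 0.00119). AKI_A_FGF23_R176QR179Q and NC differed by -0.10 (95% interval -0.84 to 0.63, adjusted p = 0.833). Col15a1, a collagen between basement membranes and fibrils, averaged 23.7 ± 3.28 CPM in NC, 34.6 ± 17.3 CPM in AKI_A_mcherry and 33 ± 0.99 CPM in AKI_A_FGF23_R176QR179Q (SD, n = 4). Nid1, which links laminin to type IV collagen, averaged 36.9 ± 3.42 CPM in NC, 34.1 ± 12.3 CPM in AKI_A_mcherry and 48 ± 7.33 CPM in AKI_A_FGF23_R176QR179Q. Both passed only in the combined comparison, at a log2FC of 0.46 (adjusted p = 0.00396) and 0.36 (adjusted p = 0.0287), with a log2FC of 0.55 (adjusted p = 0.168) and -0.11 (adjusted p = 0.69) in the injury comparison. With all 12 libraries in 1 fit both calls were lost (adjusted p = 0.233 for Col15a1 and 0.192 for Nid1), while the Col15a1 call held without any single library. The Nid1 call had adjusted p from 6.6e-04 to 0.192 over the alternatives and was lost without replicate 1 or 5 of AKI_A_FGF23_R176QR179Q (0.0672 and 0.0832) and without NC replicate 2 or 3 (0.0683 and 0.0834). Without AKI_A_mcherry replicate 3 Col15a1 passed as higher in AKI_A_mcherry than in NC (adjusted p = 0.0113, over the alternatives 0.0113 to 0.524). Without AKI_A_mcherry replicate 1 Nid1 passed as lower there (adjusted p = 0.0344, over the alternatives 0.0344 to 0.958) and as higher in AKI_A_FGF23_R176QR179Q than in AKI_A_mcherry (adjusted p = 0.00971, over the alternatives 0.00971 to 0.419).

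Of 16 other basement membrane genes, 3 passed as higher and 7 as lower in the injury comparison (median log2 fold change -0.34), 3 and 1 in the variant comparison (median 0.31), and 3 and 5 in the combined comparison (median -0.03). The injury counts were 18.8% and 43.8%, against 27.2% and 26.0% of all genes. The variant counts were 18.8% and 6.25%, against 11.7% and 11.4%, and the combined counts 18.8% and 31.25%, against 21.7% and 20.6%. Lama3, the alpha chain of the epithelial laminin that holds Lamb3, was at 22.4 to 38.4 CPM in NC, 14.2 to 28.4 CPM in AKI_A_mcherry and 55 to 105 CPM in AKI_A_FGF23_R176QR179Q. It did not pass in the injury comparison (log2FC -0.41, adjusted p = 0.151) and was higher in AKI_A_FGF23_R176QR179Q than in AKI_A_mcherry (log2FC 1.70, adjusted p = 0.00249) or NC (log2FC 1.29, adjusted p = 0.00121). Lamc1, the gamma chain of most laminins, passed as higher in AKI_A_mcherry (log2FC 0.65, adjusted p = 0.00105). The largest falls there were those of Lama2, the alpha chain of muscle and interstitial laminins (log2FC -2.37, adjusted p = 2.3e-04), and Lamc3 (log2FC -1.99, adjusted p = 5.9e-05). Lama2 was higher in AKI_A_FGF23_R176QR179Q than in AKI_A_mcherry (log2FC 1.79, adjusted p = 0.0106), and Lamc3 and Lama1, a laminin chain of tubules, were lower in AKI_A_FGF23_R176QR179Q than in NC (log2FC -1.20 at adjusted p = 1.9e-04 and -1.14 at adjusted p = 0.0111). Col4a5, the third chain of the Col4a3 and Col4a4 network, ranged over 41.8 to 48.9 CPM in NC, 18.2 to 30.0 CPM in AKI_A_mcherry and 28.5 to 41.2 CPM in AKI_A_FGF23_R176QR179Q. It was lower than NC in both injured groups (log2FC -0.79 at adjusted p = 0.00106 and -0.44 at adjusted p = 0.0113), and it was named for its role after its values were seen.

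The 5 other collagens had no member that passed as higher in the injury comparison, where 27.2% of all genes did. Col6a1, 1 of the chains of the beaded microfibrils of type VI collagen, stood at 20.1, 15.6, 15.9 and 23.7 CPM in NC, 12.6, 15, 6.39 and 9.3 CPM in AKI_A_mcherry and 24.1, 21.5, 18.8 and 19.2 CPM in AKI_A_FGF23_R176QR179Q. AKI_A_mcherry lay below both other groups without overlap, and AKI_A_FGF23_R176QR179Q overlapped NC (log2FC -0.79 ± 0.25 SE, adjusted p = 0.0208, then 0.94 ± 0.23 SE, adjusted p = 0.0176, then 0.13 ± 0.14 SE, adjusted p = 0.498, in the 3 comparisons in turn). The Col6a1 call against NC had adjusted p from 0.00422 to 0.065 over the alternatives and was lost without AKI_A_mcherry replicate 4 (0.058) or NC replicate 4 (0.065), and that between the injured groups, from 0.00102 to 0.0536, without replicate 1 of AKI_A_FGF23_R176QR179Q (0.0536). Col6a2, its partner, averaged 11.5 ± 2.25 CPM in NC, 8.61 ± 4.12 CPM in AKI_A_mcherry and 14.7 ± 2.1 CPM in AKI_A_FGF23_R176QR179Q. It passed in no comparison (log2FC -0.41 at adjusted p = 0.312, 0.75 at adjusted p = 0.103 and 0.34 at adjusted p = 0.108). Without AKI_A_mcherry replicate 2 it passed as higher in AKI_A_FGF23_R176QR179Q than in AKI_A_mcherry (adjusted p = 0.0466, over the alternatives 0.019 to 0.294). Col6a3 averaged 19.6 ± 4.01 CPM in NC, 20.4 ± 8.9 CPM in AKI_A_mcherry and 30.6 ± 1.96 CPM in AKI_A_FGF23_R176QR179Q and passed only in the combined comparison (log2FC 0.62, adjusted p = 0.00398), a call lost with all 12 libraries in 1 fit (adjusted p = 0.0838, the highest over the alternatives). Col8a1, a network collagen of vessels, stood at 2.5, 4.34, 3.83 and 4.42 CPM in NC, 5.65, 1.93, 2.94 and 2.97 CPM in AKI_A_mcherry and 9.12, 10.6, 6.69 and 5.41 CPM in AKI_A_FGF23_R176QR179Q. All libraries of AKI_A_FGF23_R176QR179Q lay above NC, and AKI_A_mcherry replicate 1 overlapped them. Col8a1 was 2.33-fold higher in AKI_A_FGF23_R176QR179Q than in AKI_A_mcherry (log2FC 1.22 ± 0.33 SE, adjusted p = 0.0256) and 2.08-fold higher than in NC (log2FC 1.06 ± 0.25 SE, adjusted p = 0.00594), and AKI_A_mcherry and NC did not pass (log2FC -0.16, adjusted p = 0.705). Between the injured groups its adjusted p ran from 0.0016 to 0.12 and missed 0.05 without replicate 1 or 2 of AKI_A_FGF23_R176QR179Q (0.0688 and 0.0742) or without AKI_A_mcherry replicate 2, 3 or 4 (0.0515, 0.0577 and 0.0621). Col12a1, which coats type I fibrils, averaged 11.7 ± 2.6 CPM in NC, 18.5 ± 6.86 CPM in AKI_A_mcherry and 14.1 ± 0.682 CPM in AKI_A_FGF23_R176QR179Q. It passed in none (log2FC 0.66 at adjusted p = 0.0583, -0.41 at adjusted p = 0.233 and 0.24 at adjusted p = 0.247). Without AKI_A_mcherry replicate 2 Col12a1 passed as higher in AKI_A_mcherry than in NC (adjusted p = 0.00987, over the alternatives 0.00987 to 0.177) and as lower in AKI_A_FGF23_R176QR179Q than in AKI_A_mcherry (adjusted p = 0.0359, over the alternatives 0.0359 to 0.564).

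**Figure D3:**
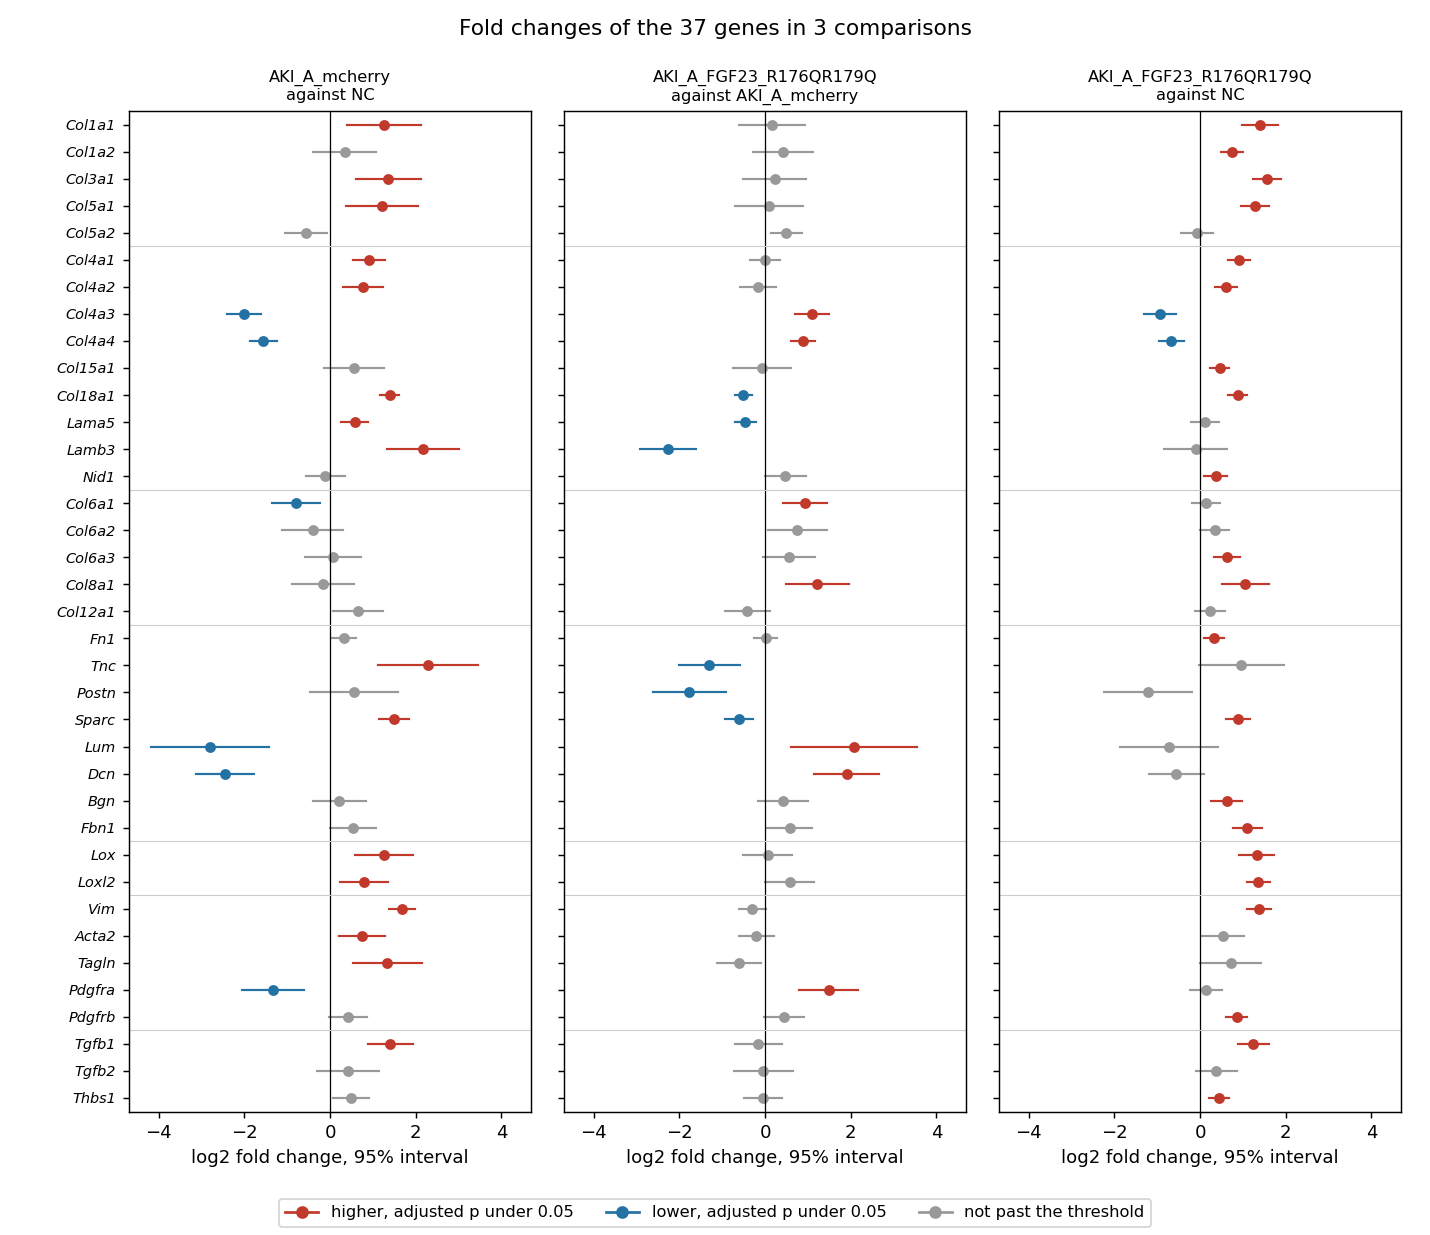
Log2 fold change with its 95% interval for each of the 37 genes (rows, in order of role) in the 3 comparisons (panels), red where higher and blue where lower with an adjusted p under 0.05, grey otherwise. The genes furthest to the left in the first panel (Lum, Dcn, Col4a3, Col4a4 and Pdgfra) lie to the right of 0 in the middle panel, which shares the AKI_A_mcherry libraries, and Tnc, Lamb3, Sparc and Col18a1 lie on the opposite sides.

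Among the glycoproteins and proteoglycans, 2 passed as higher (Tnc and Sparc) and 2 as lower (Dcn and Lum) in the injury comparison, and the reverse held for these 4 in the variant comparison, where the same AKI_A_mcherry libraries enter. Postn was also lower there. The injury counts were 25.0% and 25.0% of the 8, near the 27.2% and 26.0% of all genes. In the variant comparison 25.0% passed as higher and 37.5% as lower, against 11.7% and 11.4%. Tnc, tenascin C, a glycoprotein that appears during wound repair, stood at 12.1, 18.4, 3.33 and 5.04 CPM in NC, 58.8, 72.3, 24.5 and 31.5 CPM in AKI_A_mcherry and 13.6, 20.8, 23.9 and 18.1 CPM in AKI_A_FGF23_R176QR179Q. All AKI_A_mcherry libraries lay above both other groups, and NC and AKI_A_FGF23_R176QR179Q overlapped. Tnc was 4.84-fold higher in AKI_A_mcherry than in NC (log2FC 2.28 ± 0.53 SE, adjusted p = 0.00404) and 2.47-fold lower in AKI_A_FGF23_R176QR179Q than in AKI_A_mcherry (log2FC -1.31 ± 0.32 SE, adjusted p = 0.0179). The combined comparison did not pass (log2FC 0.96, adjusted p = 0.11). The adjusted p between the injured groups ran from 2.5e-04 to 0.0776 and missed 0.05 without replicate 1 or 5 of AKI_A_FGF23_R176QR179Q (0.0556 and 0.0523) and with all 12 libraries in 1 fit (0.0528), and Tnc passed in the combined comparison without NC replicate 2 (adjusted p = 0.0174, over the alternatives 0.0155 to 0.279). Sparc, osteonectin, a collagen-binding glycoprotein, stood at 131, 106, 91.2 and 118 CPM in NC, 311, 390.0, 297 and 254 CPM in AKI_A_mcherry and 173, 233, 216 and 209 CPM in AKI_A_FGF23_R176QR179Q. The 3 groups did not overlap, with NC lowest and AKI_A_mcherry highest (log2FC 1.49 ± 0.15 SE, adjusted p = 1.9e-05, then -0.61 ± 0.14 SE, adjusted p = 0.0148, then 0.88 ± 0.13 SE, adjusted p = 2.8e-04, in the 3 comparisons in turn). Without both libraries highest in fat markers, in a fit chosen after seeing the data, the adjusted p of Sparc between the injured groups was 0.0598 (over the alternatives 7.3e-04 to 0.0598), that of Lama5 0.0788, that of Col8a1 0.12 and that of Lum 0.212. In that fit Acta2 did not pass in the injury comparison (adjusted p = 0.080), nor did Nid1 (0.128) and Fn1 (0.131) in the combined comparison. Postn, periostin, a matrix protein of repair, stood at 13.4, 8.23, 2.38 and 6.27 CPM in NC, 15.7, 12, 11.6 and 5.03 CPM in AKI_A_mcherry and 3.48, 2.1, 5.31 and 2.3 CPM in AKI_A_FGF23_R176QR179Q. The NC libraries spread widely and overlapped both other groups, and AKI_A_mcherry replicate 4 fell just inside the range of AKI_A_FGF23_R176QR179Q. Postn was 3.39-fold lower in AKI_A_FGF23_R176QR179Q than in AKI_A_mcherry (log2FC -1.76 ± 0.38 SE, adjusted p = 0.0105), with a log2FC of 0.56 (adjusted p = 0.334) in the injury comparison and -1.21 (adjusted p = 0.0595) in the combined comparison. Without replicate 3 of AKI_A_FGF23_R176QR179Q or NC replicate 3, Postn passed as lower in AKI_A_FGF23_R176QR179Q than in NC (adjusted p = 0.0343 and 0.00904, over the alternatives 0.00904 to 0.346).

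Dcn and Lum encode decorin and lumican, small leucine-rich proteoglycans that coat collagen fibrils and limit their thickness, and they were the members that fell most in AKI_A_mcherry. Dcn stood at 53, 46.6, 25.5 and 51.3 CPM in NC, 11.5, 5.92, 9.97 and 4.75 CPM in AKI_A_mcherry and 46.6, 31, 26 and 18.2 CPM in AKI_A_FGF23_R176QR179Q. The AKI_A_mcherry libraries lay below both other groups, which overlapped. Dcn was 5.48-fold lower in AKI_A_mcherry than in NC (log2FC -2.45 ± 0.31 SE, adjusted p = 7.7e-05) and 3.74-fold higher in AKI_A_FGF23_R176QR179Q than in AKI_A_mcherry (log2FC 1.90 ± 0.34 SE, adjusted p = 0.00451). AKI_A_FGF23_R176QR179Q differed from NC by -0.55 (95% interval -1.19 to 0.08, adjusted p = 0.151). Dcn passed as lower in AKI_A_FGF23_R176QR179Q than in NC without replicate 1 of AKI_A_FGF23_R176QR179Q (adjusted p = 0.0268) or NC replicate 3 (0.0441, over the alternatives 0.0268 to 0.551). Lum, measured at far lower counts, stood at 4.7, 3.37, 1.1 and 3.46 CPM in NC, 0.927, 0.0803, 0.346 and 0.433 CPM in AKI_A_mcherry and 3.44, 1.2, 2.34 and 0.714 CPM in AKI_A_FGF23_R176QR179Q. AKI_A_mcherry lay below NC without overlap, while the highest AKI_A_mcherry library overlapped AKI_A_FGF23_R176QR179Q. Lum had log2 fold changes of -2.81 ± 0.62 SE, adjusted p = 0.00315, in the injury comparison and 2.08 ± 0.66 SE, adjusted p = 0.046, in the variant comparison. Its adjusted p between the injured groups ran from 0.00639 to 0.212 and missed 0.05 without replicate 1, 2 or 3 of AKI_A_FGF23_R176QR179Q (0.137, 0.0637 and 0.0851) and without AKI_A_mcherry replicate 2, 3 or 4 (0.0716, 0.0927 and 0.0931). It also missed with no filter on low counts (adjusted p = 0.0748) and with limma's voom (0.0917). The combined comparison of Lum did not pass (log2FC -0.73, adjusted p = 0.289). Bgn, biglycan, a related proteoglycan, averaged 112 ± 28 CPM in NC, 129.6 ± 54.7 CPM in AKI_A_mcherry and 174 ± 25 CPM in AKI_A_FGF23_R176QR179Q. It followed neither and passed only as higher in the combined comparison (log2FC 0.62, adjusted p = 0.0108), a call lost with all 12 libraries in 1 fit (adjusted p = 0.0802, the highest over the alternatives), with a log2FC of 0.22 (adjusted p = 0.539) in the injury comparison.

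Fn1, fibronectin, on which other matrix proteins are laid down, stood at 27.5, 24.9, 29.4 and 33.3 CPM in NC, 38.4, 40.2, 28.7 and 35.8 CPM in AKI_A_mcherry and 37.1, 38.7, 31.7 and 38.9 CPM in AKI_A_FGF23_R176QR179Q. The 3 groups overlapped, with log2FC of 0.32 ± 0.13 SE, adjusted p = 0.0621, in the injury comparison, 0.02 (95% interval -0.25 to 0.28) between the injured groups and 0.33 ± 0.10 SE, adjusted p = 0.0266, in the combined comparison. Fn1 passed in the injury comparison without AKI_A_mcherry replicate 3 (adjusted p = 0.0145) or NC replicate 4 (0.0434, over the alternatives 0.0101 to 0.158). Against NC its call in AKI_A_FGF23_R176QR179Q had adjusted p from 3.2e-04 to 0.131 and was lost without replicate 1, 2 or 5 of AKI_A_FGF23_R176QR179Q (0.052, 0.0725 and 0.0697) or NC replicate 1, 2 or 3 (0.0614, 0.0864 and 0.0521), and with all 12 libraries in 1 fit (0.0538). Fbn1, fibrillin 1, which forms microfibrils that hold latent TGF-beta, averaged 9.99 ± 1.67 CPM in NC, 14.4 ± 4.75 CPM in AKI_A_mcherry and 21.6 ± 3.56 CPM in AKI_A_FGF23_R176QR179Q (SD, n = 4). It passed in the combined comparison (log2FC 1.10 ± 0.15 SE, adjusted p = 2.3e-04), where all 4 libraries of AKI_A_FGF23_R176QR179Q lay above NC, with a log2FC of 0.53 (adjusted p = 0.092) and 0.58 (adjusted p = 0.10) in the other comparisons. Fbn1 passed as higher in AKI_A_mcherry than in NC without AKI_A_mcherry replicate 3 (adjusted p = 0.0059, over the alternatives 0.0059 to 0.251) and as higher in AKI_A_FGF23_R176QR179Q than in AKI_A_mcherry without AKI_A_mcherry replicate 1 (adjusted p = 0.0445, over the alternatives 0.0284 to 0.238).

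A wider list of 27 other matrix genes held more falls than rises in both comparisons with NC. In the injury comparison 5 passed as higher and 10 as lower of 26 tested (median log2 fold change -0.45), in the variant comparison 10 and 3 of 25 (median 0.26), and in the combined comparison 5 and 8 of 27 (median -0.26). The injury counts were shares of 19.2% and 38.5%, against 27.2% and 26.0% of all genes. The variant counts were a share of 40.0% higher, against 11.7% of all genes, and a share lower near the 11.4% of all genes. The combined counts were shares of 18.5% and 29.6%, against 21.7% and 20.6% of all genes. Fmod, fibromodulin, another leucine-rich proteoglycan of collagen fibrils, stood at 13.1, 10.2, 10.6 and 15.2 CPM in NC, 0.559, 0.14, 0.425 and 0.298 CPM in AKI_A_mcherry and 5.86, 2.88, 1.53 and 2.0 CPM in AKI_A_FGF23_R176QR179Q. The 3 groups did not overlap, with AKI_A_mcherry lowest, and the log2 fold changes were -5.09 (adjusted p = 1.1e-06), 3.08 (adjusted p = 0.00379) and -2.01 (adjusted p = 0.00134) in the 3 comparisons in turn. Ogn, osteoglycin, of the same family, was at 16.2 to 24.4 CPM in NC, 1.85 to 2.81 CPM in AKI_A_mcherry and 6.83 to 17.8 CPM in AKI_A_FGF23_R176QR179Q. It was higher in AKI_A_FGF23_R176QR179Q than in AKI_A_mcherry by a log2FC of 2.27 (adjusted p = 0.00137) and lower in AKI_A_mcherry than in NC by a log2FC of -3.20 (adjusted p = 4.4e-07). In RefSeq's gene order Dcn is next to Lum on chromosome 10, Fmod next to Prelp on chromosome 1, and Ogn lies in a run with Omd and Aspn on chromosome 13. Prelp was at 20.1 to 27.5 CPM in NC, 2.39 to 3.62 CPM in AKI_A_mcherry and 6.71 to 19.2 CPM in AKI_A_FGF23_R176QR179Q (log2FC -2.93 at adjusted p = 3.2e-07, 1.85 at adjusted p = 0.00344 and -1.08 at adjusted p = 0.00873 in the 3 comparisons in turn). Aspn was at 0.971 to 6.04 CPM in NC, 0.403 to 1.12 CPM in AKI_A_mcherry and 0.643 to 2.43 CPM in AKI_A_FGF23_R176QR179Q (log2FC -2.45 at adjusted p = 0.00281, 1.47 at adjusted p = 0.0497 and -0.99 at adjusted p = 0.158). Prelp and Aspn were named for their place after their values were seen. Col6a6, a type VI collagen chain, had 0 counts in all 4 AKI_A_mcherry libraries against 1.91 to 4.88 CPM in NC, so it was at least 73.2-fold lower, with the floor set at 3 counts in each library. In AKI_A_FGF23_R176QR179Q Col6a6 was at 0.0857 to 0.257 CPM (log2FC -4.76 at adjusted p = 2.0e-05 against NC). The largest rise in both injured groups against NC was that of Spp1, osteopontin, which injured tubules secrete, at 628 to 775 CPM in NC, 26317 to 30469.9 CPM in AKI_A_mcherry and 5673 to 21410.4 CPM in AKI_A_FGF23_R176QR179Q. Spp1 passed in all 3 comparisons (log2FC 5.38 at adjusted p = 2.5e-08, -1.01 at adjusted p = 0.0464 and 4.36 at adjusted p = 7.1e-06). Efemp2, fibulin 4, which helps Lox to cross-link elastin, rose in AKI_A_mcherry (log2FC 1.61, adjusted p = 1.8e-04) and further in AKI_A_FGF23_R176QR179Q (log2FC 0.70 at adjusted p = 0.00654 between the injured groups and 2.30 at adjusted p = 1.4e-05 against NC). Col7a1, the anchoring fibril collagen, was lower in AKI_A_FGF23_R176QR179Q than in AKI_A_mcherry (log2FC -1.25, adjusted p = 0.00865). Without replicate 1, 2 or 3 of AKI_A_FGF23_R176QR179Q or replicate 2, 3 or 4 of AKI_A_mcherry, Aspn did not pass in the variant comparison (adjusted p = 0.0728 to 0.131, over the alternatives 0.0141 to 0.21). The Spp1 call in the variant comparison was lost without replicate 2 or 5 of AKI_A_FGF23_R176QR179Q or replicate 1, 2, 3 or 4 of AKI_A_mcherry (adjusted p = 0.068 to 0.113, over the alternatives 0.00334 to 0.113).

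Of the 5 fibroblast and myofibroblast genes, 3 passed as higher (Vim, Acta2 and Tagln) and 1 as lower (Pdgfra) in the injury comparison. In the variant comparison 1 passed as higher (Pdgfra), and in the combined comparison 2 did (Vim and Pdgfrb). Vim, vimentin, the intermediate filament of mesenchymal cells that injured tubule cells also make, stood at 56.6, 47.2, 42.1 and 46.2 CPM in NC, 146, 190.1, 144 and 134 CPM in AKI_A_mcherry and 104, 150.4, 131 and 118 CPM in AKI_A_FGF23_R176QR179Q. All 8 injured libraries lay above NC, and the injured groups overlapped (log2FC 1.68 ± 0.14 SE, adjusted p = 3.7e-06, then -0.30 at adjusted p = 0.152, then 1.37 ± 0.13 SE, adjusted p = 1.8e-05, in the 3 comparisons in turn). Acta2, smooth muscle actin, made by arterial muscle and by myofibroblasts, stood at 108, 81.3, 47.2 and 89.4 CPM in NC, 175.7, 129.7, 141 and 97.4 CPM in AKI_A_mcherry and 105, 130.01, 147 and 97.5 CPM in AKI_A_FGF23_R176QR179Q. NC overlapped both injured groups, and AKI_A_mcherry was higher than NC by a log2FC of 0.75 ± 0.24 SE, adjusted p = 0.0222, while AKI_A_FGF23_R176QR179Q did not pass against NC (log2FC 0.54, adjusted p = 0.0745) or AKI_A_mcherry (log2FC -0.20, adjusted p = 0.468). The first of these had adjusted p from 0.00484 to 0.080 and was lost without AKI_A_mcherry replicate 1 (0.0633), and Acta2 passed in the combined comparison without NC replicate 1 (adjusted p = 0.0303, over the alternatives 0.00699 to 0.188). Tagln, transgelin, an actin-binding protein of the same cells, averaged 40.6 ± 20.7 CPM in NC, 102 ± 36.2 CPM in AKI_A_mcherry and 67.5 ± 12.2 CPM in AKI_A_FGF23_R176QR179Q. Its log2 fold changes were 1.34 (adjusted p = 0.0104), -0.61 (adjusted p = 0.0818) and 0.72 (adjusted p = 0.0967) in the 3 comparisons in turn. Without AKI_A_mcherry replicate 4 Tagln passed as lower in AKI_A_FGF23_R176QR179Q than in AKI_A_mcherry (adjusted p = 0.0451, over the alternatives 0.0341 to 0.206), and without NC replicate 1 as higher in AKI_A_FGF23_R176QR179Q than in NC (adjusted p = 0.00996, over the alternatives 0.00996 to 0.207). Pdgfra and Pdgfrb are receptors for platelet-derived growth factor, the first typical of interstitial fibroblasts and the second also of pericytes and mesangial cells. Pdgfra stood at 40.7, 38.5, 24.6 and 28.7 CPM in NC, 20.3, 16.6, 6.59 and 8.79 CPM in AKI_A_mcherry and 42.4, 40.0, 30.8 and 34.5 CPM in AKI_A_FGF23_R176QR179Q. AKI_A_mcherry lay below both other groups, which overlapped, and Pdgfra was 2.53-fold lower in AKI_A_mcherry than in NC (log2FC -1.34 ± 0.33 SE, adjusted p = 0.0057) and 2.8-fold higher in AKI_A_FGF23_R176QR179Q than in AKI_A_mcherry (log2FC 1.48 ± 0.31 SE, adjusted p = 0.00915). Between AKI_A_FGF23_R176QR179Q and NC the Pdgfra difference was 0.14 (95% interval -0.23 to 0.51). Pdgfrb stood at 40.8, 39.8, 44.4 and 50.1 CPM in NC, 67.7, 79.5, 39.2 and 47.3 CPM in AKI_A_mcherry and 69.4, 96.2, 79.4 and 75.4 CPM in AKI_A_FGF23_R176QR179Q. The libraries of AKI_A_FGF23_R176QR179Q lay above all NC libraries, and AKI_A_mcherry overlapped both (log2FC 0.42 at adjusted p = 0.103, 0.44 at adjusted p = 0.146 and 0.85 ± 0.11 SE, adjusted p = 1.8e-04 in the 3 comparisons in turn). Without AKI_A_mcherry replicate 3 Pdgfrb passed as higher in AKI_A_mcherry than in NC (adjusted p = 0.0166, over the alternatives 0.0166 to 0.291), and without AKI_A_mcherry replicate 2 as higher in AKI_A_FGF23_R176QR179Q than in AKI_A_mcherry (adjusted p = 0.0491, over the alternatives 0.0233 to 0.316).

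Markers of cell types that make matrix were examined beside these genes. Of 10 further fibroblast and pericyte markers, 1 passed as higher and 5 as lower in the injury comparison, where 27.2% and 26.0% of all genes did. In the variant comparison 3 passed as higher and 0 as lower, where 11.7% and 11.4% of all genes did. In the combined comparison 0 passed as higher and 1 as lower, where 21.7% and 20.6% did. The summed level of the 10 markers was 149.5 to 224 CPM in NC, 103 to 216 CPM in AKI_A_mcherry and 161 to 209 CPM in AKI_A_FGF23_R176QR179Q, and none was at 0 throughout a group. Dpt, dermatopontin, was at 1.91 to 7.26 CPM in NC, 0.283 to 1.2 CPM in AKI_A_mcherry and 2.0 to 3.38 CPM in AKI_A_FGF23_R176QR179Q (log2FC -2.54 at adjusted p = 0.00142 and 1.73 at adjusted p = 0.0145 in the first 2 comparisons). Clec3b, tetranectin, was at 0.356 to 2.21 CPM in NC, 0 to 0.12 CPM in AKI_A_mcherry and 0.214 to 1.34 CPM in AKI_A_FGF23_R176QR179Q (log2FC -4.68 at adjusted p = 0.00179 and 3.26 at adjusted p = 0.0446). The 1 that rose was Pi16 (log2FC 1.32, adjusted p = 6.1e-04), and the 1 that was lower in AKI_A_FGF23_R176QR179Q than in NC was Cspg4, the pericyte proteoglycan NG2 (log2FC -0.50, adjusted p = 0.00384). Of 6 smooth muscle markers, 2 passed as higher in the injury comparison (33.3%, near the 27.2% of all genes), Smtn (log2FC 0.98, adjusted p = 2.6e-05) and Des (log2FC 0.97, adjusted p = 0.0124), and Smtn was lower in AKI_A_FGF23_R176QR179Q than in AKI_A_mcherry (log2FC -0.55, adjusted p = 0.00493). Against NC, Smtn (log2FC 0.42, adjusted p = 0.0135) and Des (log2FC 0.52, adjusted p = 0.0451) were higher and Myh11, smooth muscle myosin, lower (log2FC -0.41, adjusted p = 0.037) in AKI_A_FGF23_R176QR179Q. The summed level of the 6 was 130.05 to 190.3 CPM in NC, 216 to 265 CPM in AKI_A_mcherry and 165 to 201 CPM in AKI_A_FGF23_R176QR179Q. Of 9 endothelial markers 3 fell in the injury comparison (33.3%, near the 26.0% of all genes), led by Tek (log2FC -1.14, adjusted p = 4.9e-04) and Tie1 (log2FC -0.68, adjusted p = 0.00235). Between the injured groups 4 (44.4%, against 11.7% of all genes) were higher in AKI_A_FGF23_R176QR179Q than in AKI_A_mcherry, with Tek and Tie1 again furthest (log2FC 1.35 at adjusted p = 8.7e-04 and 0.65 at adjusted p = 0.00813). Their summed level was 364 to 469.6 CPM in NC, 252 to 389 CPM in AKI_A_mcherry and 428 to 558 CPM in AKI_A_FGF23_R176QR179Q, and Plvap alone passed in the combined comparison (log2FC 0.34, adjusted p = 0.0488). Without replicate 1, 2, 3 or 5 of AKI_A_FGF23_R176QR179Q or replicate 1, 2, 3 or 4 of AKI_A_mcherry, Clec3b did not pass in the variant comparison (adjusted p = 0.0561 to 0.169, over the alternatives 0.0102 to 0.191). The Myh11 call in the combined comparison was lost without replicate 1, 2 or 5 of AKI_A_FGF23_R176QR179Q or replicate 1, 2 or 4 of NC (adjusted p = 0.0625 to 0.102, over the alternatives 0.00868 to 0.682). Without replicate 1, 2 or 3 of AKI_A_FGF23_R176QR179Q or replicate 2, 3 or 4 of NC, Des did not pass in the combined comparison (adjusted p = 0.0508 to 0.128, over the alternatives 0.00299 to 0.143). The Plvap call in the combined comparison was lost without replicate 1, 2 or 3 of AKI_A_FGF23_R176QR179Q or replicate 2, 3 or 4 of NC (adjusted p = 0.0687 to 0.14, over the alternatives 9.6e-04 to 0.494). The part of these cell types in the changes of the matrix genes was not tested.

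Markers of injured tubule cells, macrophages, platelets and fat were examined too. Of 10 markers of injured tubule cells, 9 passed as higher in the injury comparison, led by Havcr1, the kidney injury molecule KIM-1 (log2FC 9.77, adjusted p = 5.2e-08), and Lcn2, lipocalin 2 (log2FC 8.94, adjusted p = 1.7e-07). In the variant comparison 9 passed as lower, led by Krt19 (log2FC -2.82, adjusted p = 0.00419) and Krt18 (log2FC -2.31, adjusted p = 0.00149). Against NC 8 passed as higher in AKI_A_FGF23_R176QR179Q, led by Havcr1 (log2FC 8.35, adjusted p = 8.3e-07) and Lcn2 (log2FC 6.77, adjusted p = 1.4e-05). As shares of the 10 these were 90.0% higher, 90.0% lower and 80.0% higher, against 27.2%, 11.4% and 21.7% of all genes. The summed level of the 10 was 139 to 224 CPM in NC, 5224 to 5938 CPM in AKI_A_mcherry and 964 to 2586 CPM in AKI_A_FGF23_R176QR179Q. Of 8 macrophage and monocyte markers, 2 (25.0%) passed as higher and 3 (37.5%) as lower in the injury comparison, shares near those of all genes (27.2% and 26.0%). Cd68 (log2FC 3.95, adjusted p = 2.8e-06) and Itgam (log2FC 2.57, adjusted p = 9.4e-04) were higher, and Csf1r (log2FC -1.73, adjusted p = 2.8e-06) and Adgre1 (log2FC -1.19, adjusted p = 0.0106) were among the lower. In the variant comparison Csf1r was higher (log2FC 0.62, adjusted p = 0.0124) and Cd68 (log2FC -1.53, adjusted p = 0.00439) and Lyz2 (log2FC -1.20, adjusted p = 0.0285) were lower. Against NC 3 were higher, led by Cd68 (log2FC 2.41, adjusted p = 6.5e-05) and Itgam (log2FC 1.57, adjusted p = 0.00386), and 4 lower, led by Csf1r (log2FC -1.11, adjusted p = 2.9e-05) and Ptprc (log2FC -0.64, adjusted p = 0.00381). As shares these were 37.5% and 50.0%, against 21.7% and 20.6% of all genes. Without replicate 1 or 5 of AKI_A_FGF23_R176QR179Q, Lyz2 did not pass in the variant comparison (adjusted p = 0.0815 to 0.0828, over the alternatives 0.00128 to 0.0828). The summed macrophage and monocyte level was 131 to 176.1 CPM in NC, 103 to 239.6 CPM in AKI_A_mcherry and 90.7 to 123 CPM in AKI_A_FGF23_R176QR179Q. Platelets carry TGF-beta and thrombospondin. Of 3 platelet markers tested 2 were higher in AKI_A_mcherry than in NC, Ppbp (log2FC 3.40, adjusted p = 0.00178) and Pf4 (log2FC 2.14, adjusted p = 0.0060), and both were lower in AKI_A_FGF23_R176QR179Q than in AKI_A_mcherry (log2FC -2.93 at adjusted p = 0.00216 and -2.51 at adjusted p = 0.00735). Each was a share of 66.7%, against 27.2% of all genes higher in the injury comparison and 11.4% lower in the variant comparison. Itga2b was lower in AKI_A_FGF23_R176QR179Q than in NC (log2FC -0.55, adjusted p = 0.0153). The 5 platelet markers summed to 7.81 to 10.7 CPM in NC, 7.7 to 15.7 CPM in AKI_A_mcherry and 5.51 to 7.53 CPM in AKI_A_FGF23_R176QR179Q. None of the 3 fat markers tested passed in any comparison, and their part, like that of the other cells named here, was not tested.

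TGF-beta is the cytokine best known for driving matrix synthesis; its ligands are secreted in a latent form, freed by activators such as thrombospondin 1, and act through receptors and SMAD proteins. Tgfb1, the main ligand, stood at 10.6, 12.3, 12.7 and 9.66 CPM in NC, 28.5, 46.1, 19.9 and 25.4 CPM in AKI_A_mcherry and 20.3, 34.1, 28.6 and 25.9 CPM in AKI_A_FGF23_R176QR179Q. All 8 injured libraries lay above NC, and the injured groups overlapped throughout. Tgfb1 was 2.66-fold higher in AKI_A_mcherry than in NC (log2FC 1.41 ± 0.24 SE, adjusted p = 5.4e-04) and 2.37-fold higher in AKI_A_FGF23_R176QR179Q (log2FC 1.25 ± 0.16 SE, adjusted p = 1.3e-04). The injured groups differed by -0.15 (95% interval -0.70 to 0.39, adjusted p = 0.68). Tgfb2, a second ligand at low level, averaged 1.63 ± 0.284 CPM in NC, 2.18 ± 0.934 CPM in AKI_A_mcherry and 2.15 ± 0.30 CPM in AKI_A_FGF23_R176QR179Q. It passed in no comparison (log2FC 0.42 at adjusted p = 0.308, -0.04 at adjusted p = 0.943 and 0.38 at adjusted p = 0.183). Thbs1, thrombospondin 1, averaged 72.3 ± 5.82 CPM in NC, 101 ± 30.8 CPM in AKI_A_mcherry and 99 ± 12.9 CPM in AKI_A_FGF23_R176QR179Q (SD, n = 4). It passed only in the combined comparison (log2FC 0.44, adjusted p = 0.00704, over the alternatives 1.7e-04 to 0.0808), a call lost with all 12 libraries in 1 fit (0.0808), with a log2FC of 0.49 (adjusted p = 0.052) in the injury comparison, a difference that passed without AKI_A_mcherry replicate 3 (adjusted p = 0.0138) or 4 (0.0257, over the alternatives 0.0138 to 0.152).

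Of 22 further genes of TGF-beta signalling, 7 passed as higher and 4 as lower in the injury comparison (median log2 fold change 0.13), 2 and 4 in the variant comparison (median 0.008), and 9 and 3 in the combined comparison (median 0.15). As shares these were 31.8% higher, near the 27.2% of all genes, and 18.2% lower, against 26.0%, in the injury comparison. In the variant comparison they were 9.09% and 18.2%, against 11.7% and 11.4%. In the combined comparison they were 40.9% and 13.6%, against 21.7% and 20.6%. Tgfbr1, the type I receptor, stood at 56.4, 56.3, 64.9 and 64.8 CPM in NC, 133, 121, 141 and 128 CPM in AKI_A_mcherry and 73.1, 106, 98.8 and 79.8 CPM in AKI_A_FGF23_R176QR179Q. AKI_A_mcherry was highest without overlap with either group, with log2 fold changes of 1.11 (adjusted p = 4.1e-06), -0.56 (adjusted p = 0.0127) and 0.54 (adjusted p = 0.00488) in the 3 comparisons in turn. Smad3, which carries the signal to the nucleus, had the largest fall in the variant comparison (log2FC -0.74, adjusted p = 0.0031), and was at 30.0 to 43.5 CPM in NC, 69.1 to 91.2 CPM in AKI_A_mcherry and 41.5 to 53.8 CPM in AKI_A_FGF23_R176QR179Q. Smad7, the inhibitory SMAD, stood at 24.1, 20.6, 22.3 and 21.4 CPM in NC, 24.2, 18.8, 21.7 and 24.1 CPM in AKI_A_mcherry and 27.3, 29, 27.5 and 24.5 CPM in AKI_A_FGF23_R176QR179Q. All 4 libraries of AKI_A_FGF23_R176QR179Q lay just above both other groups, and Smad7 passed only in the combined comparison (log2FC 0.28, adjusted p = 0.0254), with a log2FC of 0.01 (adjusted p = 0.936) and 0.27 (adjusted p = 0.102) in the other comparisons. Ltbp2, a latent TGF-beta binding protein of microfibrils, had the largest rise against NC in AKI_A_mcherry (log2FC 2.10, adjusted p = 3.1e-04) and in AKI_A_FGF23_R176QR179Q (log2FC 1.26, adjusted p = 0.00589). Its relative Ltbp4 fell in AKI_A_mcherry (log2FC -1.26, adjusted p = 5.9e-04), was higher in AKI_A_FGF23_R176QR179Q than in AKI_A_mcherry (log2FC 0.68, adjusted p = 0.0495) and lower than in NC (log2FC -0.58, adjusted p = 0.00167). Tgfbr3, betaglycan, the co-receptor, was lower in AKI_A_mcherry than in NC (log2FC -1.02, adjusted p = 5.1e-04) and higher in AKI_A_FGF23_R176QR179Q than in AKI_A_mcherry (log2FC 0.80, adjusted p = 0.00602). Ltbp1 had the largest fall in the combined comparison (log2FC -0.68, adjusted p = 0.0119), and Lrrc32, GARP, which anchors latent TGF-beta on cells, was higher there (log2FC 1.23, adjusted p = 1.2e-04). The Smad7 call in the combined comparison was lost without replicate 1, 2 or 3 of AKI_A_FGF23_R176QR179Q or replicate 2, 3 or 4 of NC (adjusted p = 0.0507 to 0.081, over the alternatives 1.5e-04 to 0.125). Without replicate 1, 2, 3 or 5 of AKI_A_FGF23_R176QR179Q or replicate 2, 3 or 4 of AKI_A_mcherry, Ltbp4 did not pass in the variant comparison (adjusted p = 0.057 to 0.131, over the alternatives 0.0122 to 0.193).

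Of 14 genes that TGF-beta is known to induce, 12 passed as higher and 0 as lower in the injury comparison, with a median log2 fold change of 1.96 (85.7% higher, against 27.2% of all genes). In the variant comparison 0 passed as higher and 8 as lower, with a median of -0.84, and in the combined comparison 10 passed as higher and 0 as lower, with a median of 1.16. The 8 were 57.1% of the list, against 11.4% of all genes lower, and the 10 were 71.4%, against 21.7% of all genes higher. Other signals also induce the genes of this list, and several are made by injured tubule cells. The list was chosen with earlier results of these data known, so its shares are a description and not an independent test. Ccn2, connective tissue growth factor, stood at 54.6, 44.6, 44.5 and 64.4 CPM in NC, 183, 197, 155 and 162 CPM in AKI_A_mcherry and 79.7, 107, 113 and 93.3 CPM in AKI_A_FGF23_R176QR179Q. The 3 groups did not overlap, with NC lowest and AKI_A_mcherry highest (log2FC 1.75 at adjusted p = 3.2e-06, -0.84 at adjusted p = 0.00237 and 0.90 at adjusted p = 5.7e-04 in the 3 comparisons in turn). Timp1, an inhibitor of matrix metalloproteinases, had the largest rise in both injured groups against NC, at 0.635, 0.104, 0.469 and 0.654 CPM in NC, 68.3, 157, 43.1 and 62.4 CPM in AKI_A_mcherry and 15.3, 29.2, 42.1 and 22.7 CPM in AKI_A_FGF23_R176QR179Q. Its log2 fold changes were 7.47 (adjusted p = 2.1e-06), -1.61 (adjusted p = 0.0199) and 5.85 (adjusted p = 5.9e-06) in the 3 comparisons in turn. The Timp1 call in the variant comparison was lost without replicate 1 or 5 of AKI_A_FGF23_R176QR179Q (adjusted p = 0.0556 to 0.0599, over the alternatives 0.00652 to 0.0769). Cdkn1a, the cell cycle inhibitor p21, followed in size against NC (log2FC 5.54 at adjusted p = 9.9e-08 and 5.11 at adjusted p = 1.2e-07) and did not pass between the injured groups (log2FC -0.43, adjusted p = 0.146). Inhba, the activin A subunit, was lower in AKI_A_FGF23_R176QR179Q than in AKI_A_mcherry (log2FC -2.05, adjusted p = 0.00892), at 0.138 to 0.734 CPM in NC, 1.81 to 6.6 CPM in AKI_A_mcherry and 0.681 to 1.45 CPM in AKI_A_FGF23_R176QR179Q. Tgfb1 and the 5 fibrillar collagens did not pass between the injured groups while 8 of these 14 genes did; whether the size of the difference differs between those genes was not tested.

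**Figure D4:**
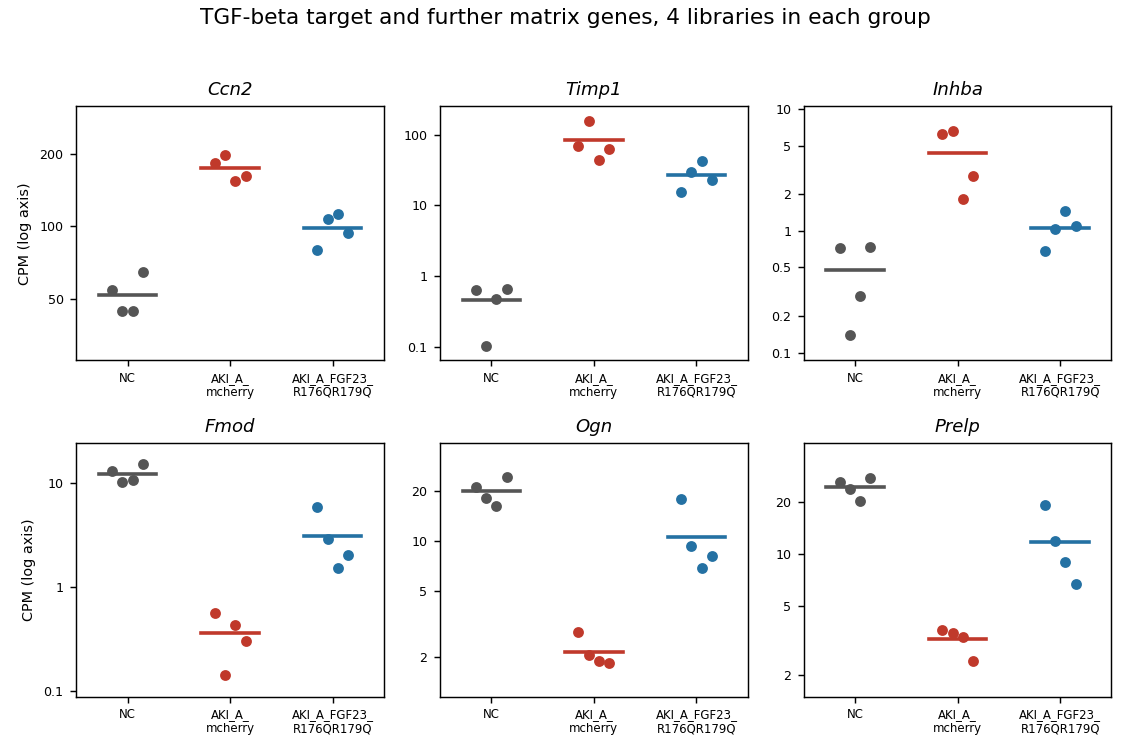
CPM in each library (points, log axis) with the group mean (bar) for 3 genes that TGF-beta is known to induce (top) and 3 further matrix genes (bottom), in NC, AKI_A_mcherry and AKI_A_FGF23_R176QR179Q. In every top panel AKI_A_mcherry is highest, and in every bottom panel AKI_A_mcherry is lowest with AKI_A_FGF23_R176QR179Q between it and NC by group mean.

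Ranked by FPKM, Sparc and Acta2 were among the 3 members of highest level in each group. In NC they were Acta2 at 30.8 ± 9.36 FPKM, Sparc at 24.5 ± 3.52 FPKM and Col4a3 at 20.7 ± 4.13 FPKM (SD, n = 4), and the last of these lay within 1 SD of Col4a1. In AKI_A_mcherry they were Sparc at 74.1 ± 9.05 FPKM, Acta2 at 56 ± 14.1 FPKM and Col18a1 at 47.2 ± 3.79 FPKM, and in AKI_A_FGF23_R176QR179Q Sparc at 56.5 ± 6.58 FPKM, Acta2 at 56.2 ± 10.6 FPKM and Col4a1 at 44 ± 4.57 FPKM. Sparc and Acta2 differed by less than their spread in AKI_A_FGF23_R176QR179Q. At the other end, Tgfb2 was at 0.383 ± 0.0506 FPKM and Postn at 0.387 ± 0.178 FPKM in AKI_A_FGF23_R176QR179Q.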

How the data were processed

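RNA from 12 mouse kidney samples in 3 groups was sequenced. Per the labels' protocols, RNA was taken up with TRIzol, had RNA integrity numbers above 7.0, and went through poly(A) selection, strand-marked (dUTP) library preparation and paired-end sequencing with an Illumina NovaSeq X Plus. The tools fastp, StringTie and edgeR and the GRCm39 build stand in the submitters' processing notes without versions, and the sources used here name no aligner, annotation or counting option. The authors deposited whole-number counts and FPKM values per gene, for 32047 genes, of which 31942 carry a symbol and 105 do not. The deposited counts hold the value 4 more often (11995 times) than 3 (5847) or 5 (3638), so low counts may not be plain read counts. All tests used the deposited counts as they stand: edgeR 4.0.16 in R 4.3.3 with TMM factors, its filter on low counts (filterByExpr) and quasi-likelihood F tests, fitted separately for each pair of groups over 8 libraries, with Benjamini-Hochberg adjustment over all genes tested and a threshold of 0.05. Levels are CPM with TMM factors over all 12 libraries (0.888 to 0.925 in NC, 0.901 to 1.03 in AKI_A_mcherry and 1.11 to 1.13 in AKI_A_FGF23_R176QR179Q). The deposited FPKM values served to set levels of different genes side by side. They also replaced counts in an alternative run of the ratio tests, in which no ratio difference changed sign. Ratios of genes were compared with exact two-sided permutation tests (Python 3.11.15, scipy 1.17.1). The fits were tested on simulated data, in the injury, variant and combined comparisons in turn. They recovered 8.93%, 11.3% and 26.5% of 1.5-fold changes and 46.6%, 45.2% and 61.2% of 2-fold changes. Of 4-fold changes they recovered 76.1%, 82.1% and 80.0%, with 3, 2 and 7 false calls. The simulated data held few changed genes. In the injury comparison they were 56, 73 and 71 at 1.5-fold, 2-fold and 4-fold among 18724 genes, where 53.1% passed in the data. The Benjamini-Hochberg cutoff depends on that share and is looser where more genes change, so these recoveries are not those of the main fits. A gene that did not pass may still differ. The 37 members and the other lists were chosen with earlier results of these data known. Values per library were given for the members that passed between the injured groups, for the 8 with the largest log2 fold change in AKI_A_mcherry against NC, and for Col1a1, Col3a1, Col4a1, Col4a3, Fn1, Acta2, Pdgfrb and Tgfb1; from each other list up to 2 genes with the largest rise and 2 with the largest fall per comparison were named, with Ccn2, Tgfbr1, Smad7 and Serpinh1. Some genes that this rule names are not reported here. Alternatives were scaling by library totals alone, by upper quartile or by RLE factors, no filter, a filter at a mean of 5 CPM, limma 3.58.1 (voom with quality weights), DESeq2 1.42.0, 1 fit over all 12 libraries, a replicate block, a log2 fold change of at least 1 (left out of the ranges of adjusted p over the alternatives), each library left out, and, chosen after seeing the data, both libraries highest in fat markers left out. Promoter sequences came from RefSeq on GRCm38.p6, matched by symbol to 25 of the 37 members; no coordinates of the 2 builds were mixed.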

Additional observations from a re-analysis of the deposited data

Results flagged for a closer look

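Each group of 4 libraries was examined for a library far from the others, by the gap to the nearest library as a share of the whole range and Dixon's 95% critical value for 4. Of 111 combinations of member and group, 4 were past it, where chance gives about 1 in 20. Lamb3, the laminin beta 3 chain, had its highest AKI_A_mcherry library at 27.3 CPM (replicate 3) with the nearest at 13.2 CPM. Col4a4 had its lowest AKI_A_mcherry library at 57.6 CPM (replicate 2) with the nearest at 75.4 CPM. In AKI_A_FGF23_R176QR179Q, Col5a1 had a highest library at 29.8 CPM with the nearest at 24.2 CPM, and Col15a1 a lowest library at 31.5 CPM with the nearest at 33.4 CPM.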

How the results depend on the processing

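None of the members called in the main fits changed sign under any alternative, and 14 of 22 calls in the injury comparison, 5 of 13 in the variant comparison (Dcn, Lamb3, Postn, Pdgfra and Col4a3) and 9 of 23 in the combined comparison passed under all of them. These alternatives include a log2 fold change of at least 1, which ends every smaller call by its definition. It alone ended the calls of Lama5, Col4a1 and Col4a2 in the injury comparison and of Col4a4 in the variant comparison. In the combined comparison it alone ended those of Col18a1, Sparc, Pdgfrb, Col4a1, Col4a2 and Col4a3. Log2 fold changes below belong to members that did not pass, and the causes were not tested. The labels' replicate numbers are shared between groups, but deviations from the group means of same-numbered libraries correlated at -0.14, -0.12, -0.13 and 0.03 in AKI_A_mcherry and NC, 0.07, 0.06 and 0.11 in both injured groups, and -0.09, -0.06 and -0.12 in AKI_A_FGF23_R176QR179Q and NC, so the numbers were not taken to pair libraries. With the replicate block, 984 genes were higher and 803 lower in the variant comparison, and 2388 higher and 2335 lower in the combined comparison, with 1 member lower there. It ended the calls of Col1a1 (adjusted p = 0.0571) and Col5a1 (0.0765) in the injury comparison, Tnc (0.0776) and Col8a1 (0.0604) in the variant comparison and Nid1 (0.076), Fn1 (0.104), Thbs1 (0.0801) and Col4a4 (0.0523) in the combined comparison, and the log2 fold change changed sign for Col6a3 -0.038 in the injury comparison, Fn1 -0.0050 and Tgfb2 0.0018 in the variant comparison and Col5a2 0.11 in the combined comparison.

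Library totals alone gave 4060 genes higher and 1035 lower, with 14 members higher, in the variant comparison, and 7829 higher and 2096 lower, with 1 member lower, in the combined comparison. Signs changed with them for Nid1 0.015 in the injury comparison, Tgfb1 0.071, Col15a1 0.15, Col4a1 0.21, Col4a2 0.060, Acta2 0.0035, Tgfb2 0.15 and Thbs1 0.17 in the variant comparison, and Col5a2 0.26 and Lamb3 0.23 in the combined comparison. A log2 fold change of at least 1 left 2444 genes higher and 2609 lower in the injury comparison, 854 and 576 in the variant comparison with 3 members lower, and 1371 and 1511 in the combined comparison with 9 members higher and 0 lower. Between the injured groups Col4a1 took the other sign with no filter (0.0031) and with a mean of at least 5 CPM (0.012), and with limma's voom so did Tgfb1 0.031, Col15a1 0.14, Tgfb2 0.046 and Thbs1 0.056. Leaving out both libraries highest in fat markers, chosen after seeing the data, gave 1120 genes higher and 1006 lower in the variant comparison. It turned Col1a1 -0.062, Lox -0.11, Fn1 -0.077, Col5a1 -0.17 and Tgfb2 0.17 there, Nid1 0.037 in the injury comparison and Col6a1 -0.023 and Lamb3 0.26 in the combined comparison.

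With 1 library left out, genes in the variant comparison ranged from 1252 to 2088 higher and 1158 to 2171 lower, with 4 to 10 members higher, and the low ends came without replicate 1 of AKI_A_FGF23_R176QR179Q. Without its replicate 5, 1439 genes were higher and 1279 lower, and without its replicate 2, 1359 were lower. In the combined comparison 2 to 4 members were lower, with 4 without NC replicate 3. Signs changed for Col6a3 from -0.17 to 0.30, Bgn from -0.049 to 0.42, Col8a1 from -0.52 to 0.032 and Nid1 from -0.38 to 0.038 in the injury comparison, for Col4a1 from -0.13 to 0.13, Thbs1 from -0.17 to 0.14, Fn1 from -0.074 to 0.079, Tgfb2 from -0.23 to 0.24, Col5a1 from -0.19 to 0.45, Col15a1 from -0.33 to 0.24, Tgfb1 from -0.31 to 0.13, Col1a1 from -0.12 to 0.54, Lox from -0.15 to 0.29 and Col3a1 from -0.039 to 0.56 in the variant comparison, and for Lama5 from -0.013 to 0.19, Lamb3 from -0.33 to 0.19 and Col5a2 from -0.21 to 0.091 in the combined comparison. The log2 ratio of Col1a1 to Pdgfrb in the variant comparison ranged from -0.38 to 0.019 and was above 0 without AKI_A_mcherry replicate 2.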

Other observations

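Lrrc32, which holds latent TGF-beta on the cell surface, stood at 47.1, 0.14, 15.3 and 28.3 CPM in AKI_A_mcherry, so its replicate 2 was far below the other three, against 11.5 to 15.5 CPM in NC and 23.8 to 38.9 CPM in AKI_A_FGF23_R176QR179Q. Col14a1, a collagen that sits on fibril surfaces with decorin, was at 22.2 to 31.1 CPM in NC, 1.4 to 5.44 CPM in AKI_A_mcherry and 7.58 to 25 CPM in AKI_A_FGF23_R176QR179Q. It was lower in AKI_A_mcherry than in NC (log2 fold change -2.82, adjusted p = 5.1e-05) and higher in AKI_A_FGF23_R176QR179Q than in AKI_A_mcherry (1.93, adjusted p = 0.0124). Col14a1 and Lrrc32 were chosen after their values were seen.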
